A study of Homo sapiens with 4 samples.

Results

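Interferon receptors and the JAK-STAT pathway behind them were followed in DU145 cells of 2 SPOP genotypes through 9 genes: the receptor subunits IFNGR1, IFNGR2, IFNAR1 and IFNAR2, the kinases JAK1 and JAK2, the transcription factors STAT3 and IRF1, and the inhibitor SOCS3. They were chosen by name, but with earlier results of these data known. All 9 were found among the 60614 gene IDs counted and passed the filter on low counts, which kept 17539 genes. DU145 is an established human prostate cancer cell line. One group carried the genotype SPOP-F133V and the other was wild-type, with 2 RNA-seq libraries each and between 35173245 and 39642063 reads counted in genes per library. SPOP recruits substrates to a CUL3-based ubiquitin ligase, and the F133V change puts valine in place of a phenylalanine in the domain that binds them. Neither genotype's label says how the cells were made, whether they are a clone or a pool, or whether SPOP was added, so the mutation and the derivation of the lines cannot be told apart. Nor do the labels say that replicates came from separate cultures. The p-values therefore cover the spread between these libraries alone, which may be technical.

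Interferons bind paired receptor chains that carry Janus kinases (JAKs) on their cytoplasmic tails. Type II interferon binds IFNGR1 and IFNGR2, whose tails carry JAK1 and JAK2, and type I interferons bind IFNAR1 and IFNAR2, whose tails carry TYK2 and JAK1. The kinases phosphorylate STAT proteins, which enter the nucleus and switch on genes such as IRF1, itself a transcription factor, and SOCS3, which binds receptor and kinase and damps the signal. STAT3 is driven mainly by cytokines of the IL-6 family through the shared receptor chain gp130, and IL-6 and active STAT3 are long known in DU145 cells.

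The sequence that STAT dimers bind, the gamma-activated site (GAS), is shown where it stands in the promoters of these genes, because IRF1 is the textbook target with such a site. RefSeq starts on GRCh38.p14 were found for 8 of the 9 genes, with 16 starts in all. The 250 bases before each start were searched on both strands for TTCNNNGAA (GAS) and for the core of the interferon-stimulated response element. A GAS match stood before 1 of the 16 starts, that of IRF1, and 0 of the 16 held the response element core, so no matches overlapped. Of all 35116 promoters in the table, 6.57% held a GAS match and 3.02% the response element core. The IRF1 match begins 124 bases before the start (capitals), and the window of SOCS3, the one with the largest unadjusted change of the 9 genes, is shown beside it. For both SOCS3 starts in the table, the first 40 bases after the start were not found in a GENCODE 29 transcript of the gene. The window may therefore lie apart from the start used in these cells. The same holds for every JAK1 start, for a start of IFNAR1 and for a start of JAK2. GENCODE 29 starts SOCS3 at 78360077 on the minus strand. The window shown lies wholly upstream of that position, and the other SOCS3 window (78359668 to 78359917) lies inside the gene. Neither covers the 250 bases before the annotated start, so the lack of a match does not describe that stretch.
IRF1 promoter, chr5:132490774-132491023, minus strand: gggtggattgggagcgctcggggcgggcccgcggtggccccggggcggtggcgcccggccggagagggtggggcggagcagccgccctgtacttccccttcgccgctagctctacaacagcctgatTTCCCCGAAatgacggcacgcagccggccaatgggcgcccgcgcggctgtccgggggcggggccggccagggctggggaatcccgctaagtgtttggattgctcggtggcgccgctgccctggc
SOCS3 promoter, chr17:78360926-78361175, minus strand, no match: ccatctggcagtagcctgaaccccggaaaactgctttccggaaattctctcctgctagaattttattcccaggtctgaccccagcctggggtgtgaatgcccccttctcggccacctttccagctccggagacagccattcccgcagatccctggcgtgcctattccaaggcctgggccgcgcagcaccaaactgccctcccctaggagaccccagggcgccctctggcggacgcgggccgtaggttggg

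Some facts of the libraries touch every value. SPOP itself was higher in F133V cells, at a mean of 1161 CPM (counts scaled to library size) against 875 CPM in wild-type cells. Genotype differences tracked transcript GC content: the bin medians of the log2 fold change, taken over all tested genes with a GC value, ran from -0.64 in the lowest of 10 GC bins to 0.34 in the highest. The F133V libraries also differed from each other along GC content, with medians from -0.18 to 0.16 (replicate 2 minus replicate 1), whereas the wild-type libraries stayed between -0.0026 and 0.021. Each value is therefore given from 2 fits by edgeR (quasi-likelihood), with p-values adjusted over all genes after Benjamini and Hochberg (BH), one unadjusted and one with an offset for GC content and transcript length, called GC-adjusted. An offset of this kind also removes any real difference that follows GC content. All 6 epithelial markers (KRT8, KRT18, KRT19, KRT7, EPCAM and CDH1) were present and called higher in F133V cells without GC adjustment, their summed level being 3775 to 4159 CPM in F133V and 3236 to 3269 CPM in wild-type libraries. After GC adjustment KRT7, the most abundant of them, was called lower (-0.12). The others were still called higher, from 0.08 for KRT18 to 0.45 for CDH1. KLK2 and KLK3, products of androgen-driven prostate cells, had 0 reads. The 10 hematopoietic markers summed to 8.42 to 11.3 CPM in F133V and 7.51 to 8.01 CPM in wild-type libraries, most of it CORO1A and CD14; PTPRC, which defines the lineage, had 1 read in 1 library and CD3E, MS4A1 and HBB had 0. Of 8 fibroblast markers, DCN and LUM had 0 reads and COL1A1 was called higher without GC adjustment (0.30), the sum being 8.06 to 8.42 CPM in F133V and 6.47 to 6.75 CPM in wild-type libraries. The 5 endothelial markers summed to 0.817 to 1.11 CPM in F133V and 0.336 to 0.56 CPM in wild-type libraries, with VWF (2.07) and KDR (1.28) called higher on 14 reads or fewer per library. The part of these markers in the results was not tested, and fewer cells of a type cannot be told apart from less RNA per cell.

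Of the 9 genes, SOCS3, IFNGR2 and STAT3 were called higher in F133V cells and IFNAR1, JAK2 and IFNGR1 lower, while JAK1, IRF1 and IFNAR2 did not pass. SOCS3 was at 2.03 times its wild-type level, and IFNAR1 at 0.7001 times and JAK2 at 0.622 times theirs. That is 3 higher and 3 lower (edgeR, BH-adjusted p under 0.05), where 27.2% of all tested genes were called higher, 27.6% lower and 54.8% in either direction. Upper-quartile scaling, which moved the median of all genes from 0.02 to 0.13 on the log2 scale, called 6462 genes higher and 3831 lower, against 4763 and 4841 here. In the GC-adjusted fit 5 were higher and 1 lower, where 27.6% of genes were higher, 24.6% lower and 52.2% called in all. The calls that both fits made in the same direction were 4: SOCS3, IFNGR2 and STAT3 higher, and IFNAR1 lower. Among all 17539 tested genes, 5638 were called in the same direction by both fits. IFNGR1 was called lower without the adjustment and higher with it. The CPM values of the genotypes did not overlap for 7 of the 9 genes, where 78.0% of all tested genes showed no overlap, so this count does not set these genes apart.

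**Figure D1:**
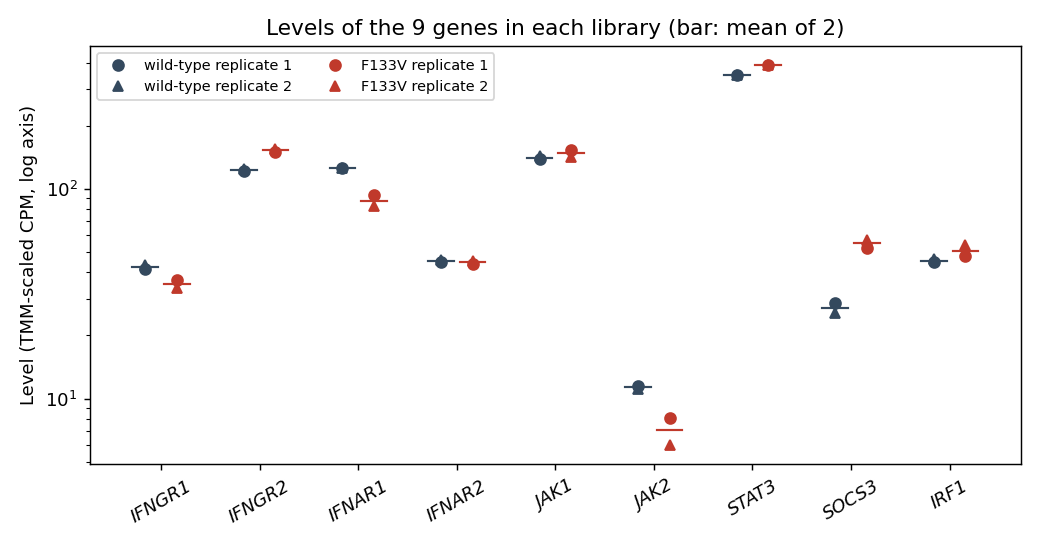
Level of each gene in each library, in CPM on a log axis; circles are replicate 1, triangles replicate 2, and bars the mean of both. SOCS3 at 52.5 and 57.3 CPM in F133V cells stands clear of 28.4 and 25.7 CPM in wild-type cells, and the JAK2 replicates of F133V cells lie farthest apart.

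The type II interferon receptor was measured through its ligand-binding chain IFNGR1 and its signalling chain IFNGR2. IFNGR2 (ENSG00000159128.15, chromosome 21, 33402896 to 33479348, plus strand, GRCh38) was at 150.25 and 155.8 CPM in F133V replicates 1 and 2, and at 122.2 and 125.0 CPM in wild-type replicates 1 and 2. Both F133V libraries were above both wild-type libraries. Its means were 153 ± 3.93 CPM with F133V and 124 ± 1.9985 CPM in wild-type (SD, n = 2 each), a log2 fold change of 0.31 ± 0.060 (SE), which shrank to 0.09 ± 0.036 after GC adjustment (edgeR BH-adjusted p = 0.000216 and 0.0338). Without wild-type replicate 1 the unadjusted call was lost (edgeR BH-adjusted p = 0.0538). IFNGR1 (ENSG00000027697.15, chromosome 6, 137197484 to 137219449, minus strand) was at 36.8 and 33.5 CPM in the F133V replicates and at 41.5 and 43.2 CPM in the wild-type replicates. Here both F133V libraries were lower, with means of 35.1 ± 2.28 CPM against 42.4 ± 1.24 CPM (SD, n = 2 each). The log2 fold change of IFNGR1 was -0.27 ± 0.075, and turned to 0.17 ± 0.049 after GC adjustment (edgeR BH-adjusted p = 0.00471 and 0.00349). At 40.2% GC, the IFNGR1 transcript lies in the second of the 10 GC bins, whose median gene stood at -0.46, so IFNGR1 lay above the genes of like GC content. The direction of IFNGR1 thus depends on the treatment of GC content. Its unadjusted call was also lost with upper-quartile scaling (-0.16, edgeR BH-adjusted p = 0.0728). The same held without wild-type replicate 1 or replicate 2 (log2 fold change -0.30 and -0.24).

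Within a library, the ratio of reads between genes needs no scaling to other libraries. IFNGR2 had 4.09 and 4.65 reads for each IFNGR1 read in the F133V replicates, and 2.945 and 2.89 in the wild-type replicates. The ratio was 1.497 times as high in F133V cells as in wild-type cells and the genotypes did not overlap. Since the transcripts differ in GC content, 55.0% for IFNGR2 and 40.2% for IFNGR1, this ratio carries the GC trend as well. The opposite-strand gene TMEM50B overlaps 12.8% of the exon bases of IFNGR2 in GENCODE 29, and without a stated strand setting its reads there cannot be told apart.

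The type I interferon receptor differed in one chain. IFNAR1 (ENSG00000142166.13, chromosome 21, 33324477 to 33359862, plus strand), the chain bound to TYK2, was at 93.1 and 82.7 CPM in the F133V replicates and at 125.2 and 125.9 CPM in the wild-type replicates. Both F133V libraries were lower than both wild-type libraries, by more than the spread within either genotype. With means of 87.9 ± 7.34 CPM and 125.5 ± 0.505 CPM (SD, n = 2 each), IFNAR1 fell with a log2 fold change of -0.51 ± 0.067, or -0.15 ± 0.038 after GC adjustment (edgeR BH-adjusted p = 1.92e-06 and 0.000814). It passed as lower in all 16 other settings tried, with log2 fold changes from -0.63 to -0.13. The median gene of its GC bin (42.3% GC) stood at -0.28. IFNAR2 (ENSG00000159110.20, chromosome 21, 33229901 to 33265675, plus strand), the chain bound to JAK1, was at 43.6 and 45.5 CPM in the F133V replicates and at 44.7 and 45.8 CPM in the wild-type replicates. The genotypes overlapped, and the log2 fold change of -0.02 ± 0.071 did not pass in either fit (0.02 ± 0.047 after GC adjustment; edgeR BH-adjusted p = 0.815 and 0.710). In reads of the same library, IFNAR1 to IFNAR2 stood at 2.13 and 1.82 in the F133V replicates and at 2.80 and 2.75 in the wild-type replicates. The ratio in F133V cells was thus 0.712 times that in wild-type cells. This ratio carries the GC trend too, as the IFNAR2 transcript has 47.0% GC against 42.3% for IFNAR1.

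The count of IFNAR2 may cover only part of the gene. In GENCODE 29, 44.2% of its exon bases also belong to ENSG00000249624, a read-through gene on the same strand that joins IFNAR2 to its neighbour IL10RB, and 83.2% are shared with some gene on either strand. The read-through gene itself had 0 reads in all 4 libraries, and reads over more than 1 gene were tallied apart and assigned to none (3.50% to 3.73% of reads per library). The same holds for IL10RB, a chain of the type III interferon receptor, with 38.1% of its exon bases shared and only 27 to 35 reads per library. Levels of IFNAR2 and IL10RB may therefore be understated, and how much was not tested. IL10RB passed as higher after GC adjustment alone (0.19 and 0.64; edgeR BH-adjusted p = 0.542 and 0.0369). IFNLR1, the other type III chain, was at 6.45 ± 0.337 CPM with F133V against 4.93 ± 0.201 CPM in wild-type (SD, n = 2 each). It was called higher without GC adjustment only (log2 fold change 0.39 and 0.24; edgeR BH-adjusted p = 0.00864 and 0.0699).

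Of the Janus kinases of the interferon-gamma receptor, JAK2 was called lower in the unadjusted fit and JAK1 was not called. JAK2 (ENSG00000096968.14, chromosome 9, 4984390 to 5128183, plus strand), the kinase of IFNGR2, was at 8.12 and 5.98 CPM in the F133V replicates and at 11.5 and 11.2 CPM in the wild-type replicates. These values rest on 211 to 452 reads per library. The F133V libraries were lower but stood far apart, with replicate 2 a log2 difference of -0.44 from replicate 1, against -0.05 between the wild-type libraries. Means were 7.05 ± 1.51 CPM and 11.3 ± 0.254 CPM (SD, n = 2 each). JAK2 had a log2 fold change of -0.68 ± 0.12, which became -0.14 ± 0.094 and missed after GC adjustment (edgeR BH-adjusted p = 5.98e-05 and 0.230). Its transcript has 39.2% GC, the lowest of the 9, and lies in the bin whose median gene stood at -0.46.

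JAK1 (ENSG00000162434.13, chromosome 1, 64833229 to 64966504, minus strand), the kinase shared by both interferon receptors and gp130, was at 153.7 and 142.25 CPM in the F133V replicates and at 138.6 and 142.7 CPM in the wild-type replicates. The genotypes overlapped, and the log2 fold change of 0.07 ± 0.062 did not pass without GC adjustment but did with it, at 0.17 ± 0.036 (edgeR BH-adjusted p = 0.337 and 0.000164). JAK1 also passed as higher without F133V replicate 2 (0.13) and with upper-quartile scaling (0.18; edgeR BH-adjusted p = 0.00152 and 0.0149). JAK1 had 18.9 and 23.8 reads for each JAK2 read in the F133V replicates and 12.04 and 12.8 in the wild-type replicates. The ratio was 1.72 times as high in F133V cells. It carries the GC trend as well, since the transcripts have 46.2% GC (JAK1) and 39.2% GC (JAK2). TYK2, the kinase of IFNAR1, was at 146 ± 13.1 CPM with F133V against 116 ± 0.323 CPM in wild-type (SD, n = 2 each). TYK2 rose with a log2 fold change of 0.34 ± 0.067, or 0.09 after GC adjustment (edgeR BH-adjusted p = 0.000245 and 0.0386). JAK3, best known from lymphocytes, rose by 0.89 ± 0.096 on the log2 scale, or 0.68 after GC adjustment (edgeR BH-adjusted p = 1.55e-07 and 1.21e-08), at 14.1 ± 0.0794 CPM against 7.57 ± 0.395 CPM (SD, n = 2 each). The hematopoietic, fibroblast and endothelial marker sums above moved in the same direction as JAK3, and their part in it was not tested.

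**Figure D2:**
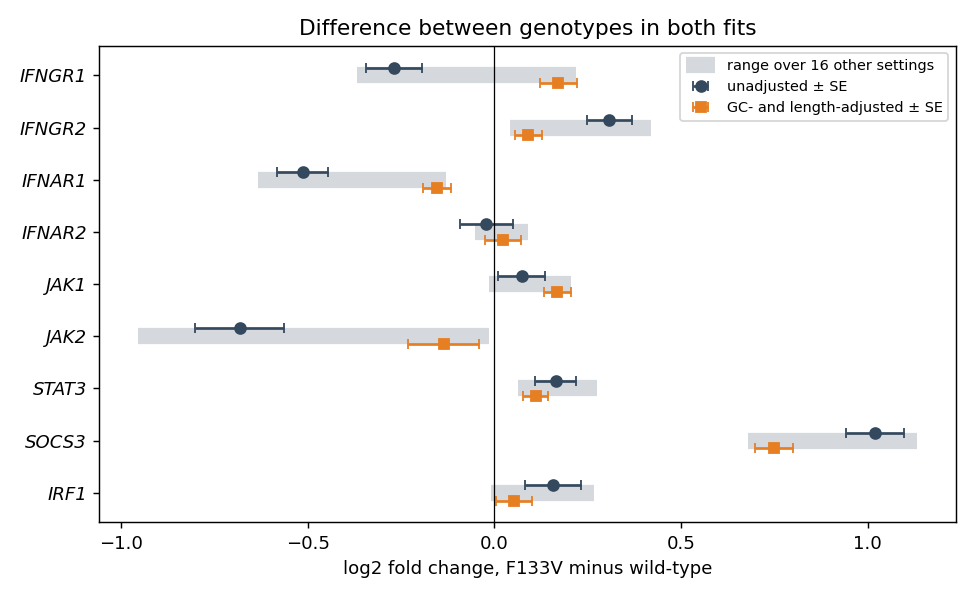
Log2 fold change of each gene, F133V minus wild-type, in the unadjusted fit (circles) and the GC- and length-adjusted fit (squares), with SE; grey bands span the 16 other settings. SOCS3 stays between 0.68 and 1.13 and IFNAR1 between -0.63 and -0.13, whereas the band of IFNGR1 runs from -0.37 to 0.22 across 0.

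STAT3 and its inhibitor SOCS3 were both higher in F133V cells, SOCS3 by far more. STAT3 (ENSG00000168610.16, chromosome 17, 42313324 to 42388568, minus strand) was at 388.85 and 389.95 CPM in the F133V replicates and at 347.3 and 347.8 CPM in the wild-type replicates. The libraries of each genotype lay closer together than for any other of the 9 genes. With means of 389 ± 0.781 CPM and 348 ± 0.353 CPM (SD, n = 2 each), STAT3 rose with a log2 fold change of 0.16 ± 0.055, or 0.11 ± 0.032 after GC adjustment (edgeR BH-adjusted p = 0.0157 and 0.00430). The call was lost without wild-type replicate 1 or replicate 2 (edgeR BH-adjusted p = 0.272 and 0.278), where the spread of the remaining wild-type library had to be taken from the F133V libraries. SOCS3 (ENSG00000184557.4, chromosome 17, 78356778 to 78360077, minus strand) was at 52.5 and 57.3 CPM in the F133V replicates and at 28.4 and 25.7 CPM in the wild-type replicates. The gap between genotypes was wide against the spread within them, with means of 54.9 ± 3.41 CPM and 27.0 ± 1.95 CPM (SD, n = 2 each). SOCS3 rose with a log2 fold change of 1.02 ± 0.078, or 0.75 ± 0.051 after GC adjustment (edgeR BH-adjusted p = 2.11e-09 and 2.80e-15). It passed as higher in all 16 other settings, from 0.68 to 1.13. The SOCS3 transcript has 60.0% GC, the highest of the 9, and the median gene of its bin stood at 0.28. Per STAT3 read, the libraries held 0.135 and 0.147 SOCS3 reads in F133V cells and 0.0818 and 0.0738 in wild-type cells. That ratio was 1.81 times as high in F133V cells. The GC trend enters it as well, with 60.0% GC for SOCS3 and 50.4% for STAT3.

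IRF1 (ENSG00000125347.15, chromosome 5, 132481609 to 132490798, minus strand), whose promoter carries the GAS shown above, was at 47.7 and 53.8 CPM in the F133V replicates and at 44.7 and 46.4 CPM in the wild-type replicates. Both F133V libraries were above both wild-type libraries, though replicate 1 only by a little. Its means were 50.7 ± 4.30 CPM and 45.5 ± 1.17 CPM (SD, n = 2 each). The log2 fold change of 0.16 ± 0.075, or 0.05 ± 0.048 after GC adjustment, did not pass (edgeR BH-adjusted p = 0.08345 and 0.364). IRF1 passed as higher with upper-quartile scaling (0.27) and without F133V replicate 1 (0.21; edgeR BH-adjusted p = 0.00400 and 0.000107). Opposite-strand genes cover 22% of the exon bases of IRF1 in GENCODE 29. Reads of IRF1 per STAT3 read were 0.123 and 0.138 in the F133V replicates and 0.129 and 0.133 in the wild-type replicates, with overlap.

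**Figure D3:**
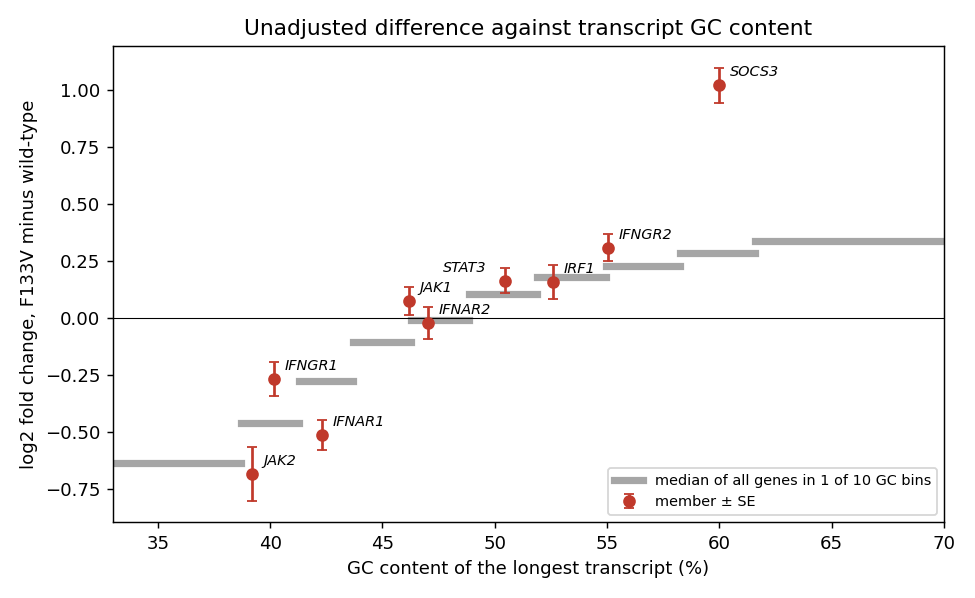
Unadjusted log2 fold change of each gene (red, with SE) against the GC content of its longest transcript, over the medians of all genes in 10 bins of GC content (grey; the outer bins run past the axis). SOCS3 at 1.02 lies above its bin at 0.28 and IFNAR1 at -0.51 below its bin at -0.28, while IFNGR1 at -0.27 lies above its bin at -0.46 although it is below 0.

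Per length of exon, the order of levels could be compared between genes as RPKM, the CPM divided by kilobases of exon. In wild-type cells IFNGR2 (41.8 ± 0.675 RPKM) and STAT3 (39.4 ± 0.0400 RPKM) led, followed by JAK1 at 22.3 ± 0.457 and IFNAR1 at 19.9 ± 0.0802 RPKM (SD, n = 2 each). IFNGR1 (12.9 ± 0.377 RPKM), SOCS3 (9.89 ± 0.713), IFNAR2 (9.81 ± 0.163), IRF1 (5.84 ± 0.149) and JAK2 (1.84 ± 0.0412) came after. SOCS3 and IFNAR2 did not differ beyond their spread in wild-type cells. In F133V cells SOCS3 took the fourth place, at 20.1 ± 1.25 RPKM, ahead of IFNAR1 at 13.9 ± 1.16 and IFNGR1 at 10.7 ± 0.697 RPKM (SD, n = 2 each). IFNGR1 and IFNAR2 (9.66 ± 0.286 RPKM) were there the closest neighbours, and their libraries did not overlap. JAK2 was lowest in both genotypes, at 1.14 ± 0.245 RPKM in F133V cells. Exon lengths were summed over all annotated transcripts, so genes with long unused exons appear lower. IFNAR2 may also appear too low, because 44.2% of its exon bases are shared with another gene on the same strand. Its place beside SOCS3 and IFNGR1 may depend on this, which was not tested.

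The other genes of the pathway were read from lists by role, which include the 9 genes where they belong. Of 7 STAT factors, 4 were higher and 1 lower, and 4 and 1 after GC adjustment, where 27.2% of all tested genes were higher and 27.6% lower, and 27.6% and 24.6% after GC adjustment. STAT2, a part of the complex ISGF3 of type I interferon signalling, rose by 0.44 ± 0.067 on the log2 scale, or 0.36 after GC adjustment (edgeR BH-adjusted p = 1.28e-05 and 3.17e-09). IRF9, the DNA-binding part of ISGF3, was higher as well, at 1.78 ± 0.0888 CPM against 0.969 ± 0.254 CPM (SD, n = 2 each; log2 fold change 0.88, GC-adjusted 0.65; edgeR BH-adjusted p = 0.00217 and 0.0140). In the GENCODE annotation, 48.4% of the exon bases of IRF9 also belong to another gene on the same strand. The level of IRF9 may therefore be understated, as for IFNAR2 and IL10RB, and how much was not tested. STAT5A rose in both fits (0.57 and GC-adjusted 0.35), as did STAT5B (0.18 and 0.095). Among 11 tested interferon regulatory factors and their binding partners 8 were higher and 0 lower (27.2% and 27.6% over all tested genes), with a median of 0.42 beside 0.02 for all tested genes. After GC adjustment 7 were higher and 2 lower (27.6% and 24.6% over all), the median then being 0.27. IRF7, the factor that amplifies type I interferon production, rose by 0.82 ± 0.10, or 0.44 after GC adjustment, and the co-repressors IRF2BPL (0.53 and 0.27) and IRF2BP2 (0.42 and 0.43) rose in both fits.

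Of 18 tested inhibitors, 6 were higher and 7 lower, and 5 and 6 after GC adjustment. Both fits called 9 of the 18 in the same direction, beside 5638 of all 17539 tested genes. Over all tested genes the shares called higher and lower were 27.2% and 27.6%, and 27.6% and 24.6% after GC adjustment. The GC-adjusted counts of higher and lower lie near this background, and the unadjusted ones somewhat above it. CISH, a SOCS family member induced by STAT5, rose by 1.38 ± 0.18 on the log2 scale, or 1.18 after GC adjustment, but at a low level of 3.41 ± 0.232 CPM against 1.31 ± 0.164 CPM (SD, n = 2 each). SOCS4 fell by 1.1985 ± 0.080 on the log2 scale, from 78.0 ± 0.288 CPM in wild-type to 34.0 ± 4.30 CPM in F133V cells (SD, n = 2 each). GC adjustment took SOCS4, whose transcript has 35.3% GC, to -0.47. SOCS6 (-0.81, GC-adjusted -0.19) and the phosphatase PTPN11 (-0.49, GC-adjusted -0.12) were lower in both fits, and SOCS1, the other classical feedback inhibitor of interferon signalling, had 28 to 40 reads per library and did not pass (0.36 and -0.09; edgeR BH-adjusted p = 0.234 and 0.802).

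Upstream, the interferon genes themselves were nearly silent. Of 12 listed, 9 had 0 reads in all 4 libraries, which allows up to 0.0764 to 0.085 CPM by a limit of 3 reads per library, for counting error only. IFNE, tested alone among them, had 8 to 17 reads per library and missed (edgeR BH-adjusted p = 0.0615), and the others had at most 3 reads in a library. Type I interferon genes share long stretches of sequence, so their reads may be set aside as having several alignments. In the gp130 family, 6 of 11 tested genes were higher and 2 lower (27.2% and 27.6% over all tested genes). After GC adjustment 4 were higher and 3 lower, near the 27.6% and 24.6% over all. IL6 rose by 0.62 ± 0.083 on the log2 scale, or 0.74 after GC adjustment, from 15.3 ± 0.593 CPM to 23.5 ± 0.878 CPM (SD, n = 2 each; edgeR BH-adjusted p = 2.64e-06 and 1.315e-12). LIF rose less, by 0.38 ± 0.061, or 0.16 after GC adjustment (edgeR BH-adjusted p = 2.84e-05 and 0.000136), at 173 ± 8.59 CPM against 133.4 ± 1.45 CPM (SD, n = 2 each). The shared chain IL6ST (gp130) went the other way, at 114 ± 14.9 CPM against 225 ± 3.58 CPM (SD, n = 2 each), a log2 fold change of -0.98 ± 0.072, or -0.25 after GC adjustment (edgeR BH-adjusted p = 1.42e-09 and 1.42e-07). LIFR, the LIF receptor chain, also fell (-0.955 ± 0.082, GC-adjusted -0.20), and the IL-6 receptor IL6R rose (0.25 ± 0.075, GC-adjusted 0.18). The transcripts of IL6ST and LIFR have 36.6% and 36.2% GC, in the lowest bin, whose median gene stood at -0.64.

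**Figure D4:**
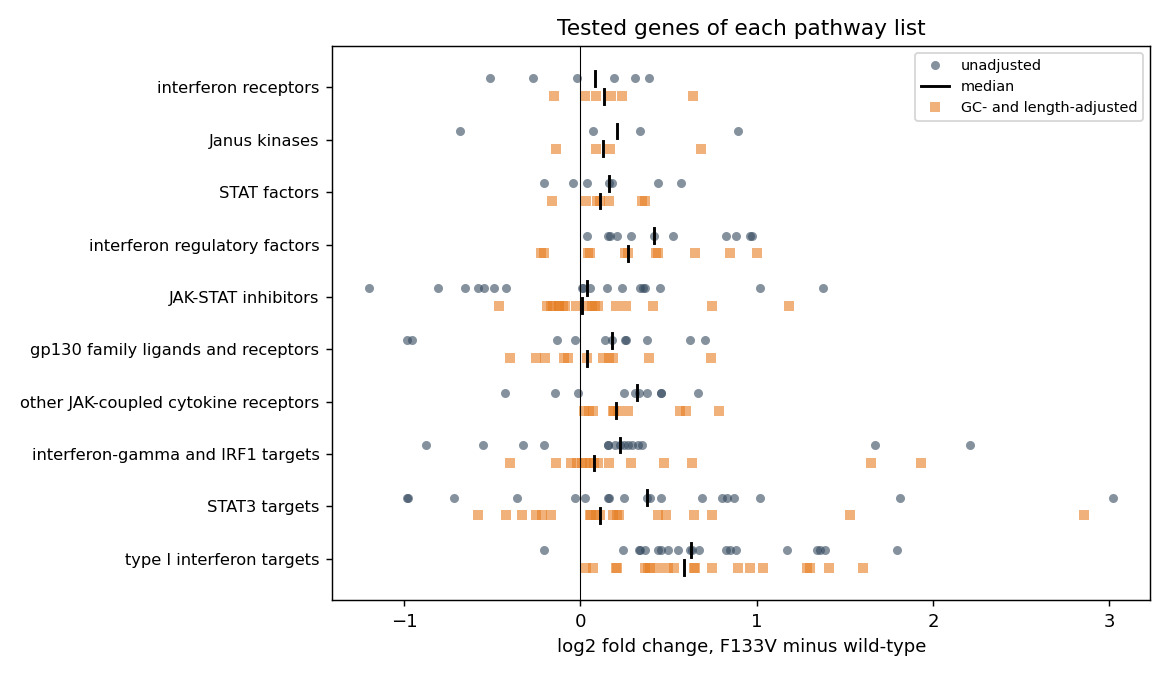
Log2 fold change, F133V minus wild-type, of every tested gene in 10 pathway lists, unadjusted (circles) and GC-adjusted (squares), with black bars at the medians. The median of the type I interferon targets is 0.63 unadjusted and 0.59 adjusted, and that of the STAT3 targets 0.38 and 0.11, beside 0.02 and 0.02 for all tested genes.

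Downstream, 9 of 15 tested interferon-gamma and IRF1 targets were higher and 4 lower (27.2% and 27.6% over all tested genes), with a median of 0.225. After GC adjustment 7 were higher and 1 lower (27.6% and 24.6% over all), with a median of 0.08. CIITA, the transactivator of MHC class II genes, rose by 1.67 ± 0.11 on the log2 scale, or 1.65 after GC adjustment, whereas IRF1 did not pass. CD274, the gene of PD-L1 and a well-known IRF1 target, was lower without GC adjustment and missed with it (-0.55 ± 0.088 and -0.14; edgeR BH-adjusted p = 2.13e-05 and 0.101). B2M, ICAM1 and PSMB8 rose in both fits (0.225, 0.33 and 0.35 unadjusted; 0.63, 0.10 and 0.16 GC-adjusted) and GBP3 fell (-0.88 and -0.40). Of 19 tested STAT3 targets, 12 were higher and 4 lower (27.2% and 27.6% over all tested genes), and 10 and 6 after GC adjustment (27.6% and 24.6% over all). LCN2, a lipocalin of inflamed epithelium, and CEBPB, an acute-phase transcription factor, rose (1.815 and 0.80 unadjusted; 1.53 and 0.44 GC-adjusted). FOS, an immediate-early transcription factor, rose by 3.02 ± 0.14, or 2.86 after GC adjustment, from 1.57 ± 0.158 CPM to 12.8 ± 1.02 CPM (SD, n = 2 each). MCL1, a survival protein, fell (-0.72 and -0.58). Of 20 tested type I interferon targets, 18 were higher and 1 lower (27.2% and 27.6% over all tested genes), and 17 and 0 after GC adjustment (27.6% and 24.6% over all). OASL (1.39 and 1.28), IFI6 (1.17 and 0.89) and ISG15 (0.85 and 0.49) rose, with IFNAR1 lower and IFNAR2 not called in the same libraries.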

How the data were processed

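RNA-seq libraries of DU145 cells were grouped by the title labels into F133V (2) and wild-type (2). The files deposited by the authors hold raw counts of reads for each gene ID, from single reads of 75 bases per the labels' protocols. TopHat2 2.0.10, HTSeq 0.6.0 and build hg38 are named in the submitters' processing notes; the sources used here do not give annotation release, strand setting or counting mode. The counter's tallies of unassigned reads stayed out of library sizes and tests; reads over no gene were 6.12% to 6.53%, reads over more than 1 gene 3.50% to 3.73% and reads with several alignments 13.6% to 16.6% per library. Symbols came from a name table (60444 IDs), and positions, exon lengths and GC content from GENCODE 29 on GRCh38 (58368 IDs), which need not be the authors' release.

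Counts were tested in R 4.3.3 with edgeR 4.0.16: filterByExpr, TMM scaling, quasi-likelihood F-test, two-sided, BH adjustment over all 17539 tested genes, threshold 0.05. SE is the absolute log2 fold change over the square root of F. The GC-adjusted fit entered per-library smooths (mgcv 1.9.3, basis dimension 8) of log2 deviations (prior count 2) on GC content and log2 length of the longest transcript, fitted over genes of mean log2 CPM above 2, as an offset, on the 17299 genes (98.6%) with values. DESeq2 1.42.0 was an alternative. Fits of genotype alone on all libraries leave 2 residual degrees of freedom. The fits with a replicate block or without a library leave fewer. The 9 genes, the 11 pathway lists and the tests were chosen with earlier results of these data known. Genes named beside the 9 are 12 fixed partners and, per list, up to 4 further genes of lowest adjusted p called in the same direction by both fits with at least 1 CPM in the higher group; markers, SPOP and IFNE are named besides. Some genes that this rule or the marker lists name are not reported here. Of the list genes, CSF2RA and CRLF2 were not analysed here.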

Additional observations from a re-analysis of the deposited data

How the results depend on the processing

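The 16 other settings gave 144 values for the 9 genes: 99 kept direction and side of the threshold, 18 missed it, 11 newly passed and 16 turned direction. IFNAR1 and SOCS3 kept their calls in all 16, and IFNAR2 passed in 0. Of the turns, 7 were IFNGR1, all under GC correction: 0.17 with GC and length (0.1711), 0.22 with GC alone, 0.17 with the replicate block and GC and length (0.1715), and with GC and length 0.1425 and 0.1647 without F133V replicates 1 and 2 and 0.1418 and 0.2024 without wild-type replicates 1 and 2. The others passed neither before nor after the turn: IFNAR2 at 0.0892 with upper-quartile scaling, 0.0232 with GC and length, 0.0192 with GC alone, 0.0227 with the replicate block and GC and length, and, under GC and length, 0.0319 without F133V replicate 1 and 0.0092 and 0.0363 without wild-type replicates 1 and 2; JAK1 at -0.0146 without F133V replicate 1; and IRF1 at -0.0081 with F133V replicate 2 left out under GC and length. Members called higher were 5 with upper-quartile scaling, and 5 higher with 1 lower with GC and length, with GC alone, and with the replicate block and GC and length; leaving out a library gave 1 to 4 higher and 2 to 3 lower, or with GC and length 2 to 5 higher and 1 to 2 lower. Upper-quartile scaling moved the median of all genes from 0.02 to 0.13. JAK1 (0.18) and IRF1 (0.27) moved by about as much and then passed. IFNGR1 (-0.16) then missed, which left 2 members called lower. DESeq2 called 2954 genes higher and 4001 lower, against 4763 and 4841. Without 1 library, 2786 to 5225 genes were higher and 3551 to 5631 lower, or 3760 to 4471 higher and 3348 to 4726 lower with GC and length. IFNGR2 and STAT3 missed under GC and length when leaving out F133V replicate 1 or either wild-type replicate (IFNGR2 0.04, 0.07 and 0.11). JAK2 missed in all GC-corrected settings but that without F133V replicate 1 (-0.33, edgeR BH-adjusted p = 0.0115), and stood at -0.01 without F133V replicate 2 (edgeR BH-adjusted p = 0.930). Why these settings differ was not tested beyond their construction. Replicate numbers are shared only in name: deviations of same-numbered libraries had a correlation of -0.0531 across 11788 genes. With the replicate block 4619 genes were higher and 4746 lower, and 3 members higher and 3 lower. Of the 9 genes JAK2 had the fewest reads, and of the others named in the pathway lists IFNE, SOCS1, IL10RB and IRF9 had at most 65 per library.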

Other observations

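For each of the 9 genes, the gene whose profile over the 4 libraries was nearest was sought among 11788 expressed genes, by Euclidean distance of centred log2 CPM. The nearest were SLC44A1 to IFNGR1, PDIA4 to IFNGR2, WDFY1 to IFNAR1, ALOXE3 to IFNAR2, OSBPL1A to JAK1, ZNF525 to JAK2, CNKSR1 to STAT3, ZNF467 to SOCS3 and DAGLA to IRF1. Distances ran from 0.00205 for IFNGR1 to 0.0402 for SOCS3 on the log2 scale. With 4 libraries such likeness describes little more than a shared fold change: ZNF467 had a log2 fold change of 1.04 beside 1.02 for SOCS3. ZNF525 and SLC44A1 had transcript GC contents near those of JAK2 and IFNGR1 (38.9% and 39.2%, against 39.2% and 40.2%).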
